A study of Mus musculus with 12 samples.

Results

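The Fc receptor genes described here are 7 genes chosen by symbol: the activating IgG receptors Fcgr1, Fcgr3 and Fcgr4, their shared signaling chain Fcer1g, the inhibitory IgG receptor Fcgr2b, the neonatal Fc receptor Fcgrt, and the Fc receptor-like gene Fcrls. All 7 were listed in the count tables of all 12 libraries, among 31054 genes in the 8 libraries of treated mice. Their levels were compared by sort and by route of dosing, and the activating receptors were set against the inhibitory one.

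Lin- hematopoietic stem and progenitor cells (HSPCs) from male donors were transduced with a lentiviral vector encoding GFP and given intravenously (i.v.) or intracerebroventricularly (i.c.v.) to busulfan-conditioned C57BL/6J mice, all of which also received untransduced bone marrow i.v. later. CD45+ CD11b+ CX3CR1+ brain cells were sorted into GFP+ microglia-like cells (MLCs) and GFP- endogenous microglia from 4 mice. These were mouse 2 (female) and mouse 27 (male) after i.v. dosing, and mouse 4 (female) and mouse 19 (male) after i.c.v. dosing, so each sort had 4 libraries and each route within a sort had 2. The design text places collection 12 to 13 months after dosing, whereas the labels give an age of 22 to 28 weeks. Treatment-naive C57BL/6J cells labelled microglia, peripheral blood (PB) cells, astrocytes and neurons gave 1 library each. All 4 came from a single animal, aged 12 weeks in the article and 8 to 12 weeks by the labels. The GFP- sort could hold donor cells without the vector, and the CX3CR1 gate was applied to both sorts.

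Receptors for the constant part of IgG let macrophages and microglia bind antibody-coated targets. The activating receptors pass their signal through the immunoreceptor tyrosine-based activation motif (ITAM) of Fcer1g, which Src-family kinases phosphorylate so that Syk can dock. Fcgr2b instead carries an inhibitory motif (ITIM) in its own tail, which recruits the lipid phosphatase encoded by Inpp5d, so the balance of activating and inhibitory receptors sets how a cell answers immune complexes. Fcgrt pairs with beta-2-microglobulin and returns IgG from endosomes to the cell surface, and Fcrls is a gene used to mark mouse microglia.

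The coding sequences below are shown because they carry the opposite functions of the 2 genes that differed between the sorts. They were read from GENCODE transcripts on GRCm38 in the direction of translation, with the tyrosine codons in capitals. The ITAM of Fcer1g holds a pair of tyrosines, and it was found in 1 of 2 coding transcripts that start with ATG. The ITIM of Fcgr2b holds a single tyrosine and was found in all 4 such transcripts.
Fcer1g ITAM: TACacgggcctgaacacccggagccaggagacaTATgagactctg
Fcgr2b ITIM: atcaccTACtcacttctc

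On GRCm38, Fcgr2b, Fcgr4, Fcgr3 and Fcer1g lie on chromosome 1, Fcrls and Fcgr1 on chromosome 3 and Fcgrt on chromosome 7. Fcgr2b spans 170958617 to 170976547, Fcgr4 171018920 to 171029761 and Fcgr3 171051174 to 171064935, so these 3 receptor genes are neighbors. Fcgr4 is on the plus strand and the others are on the minus strand. Of the 50-base stretches in the last 500 bases of the coding transcripts, 33 of 1467 of Fcgr2b also occurred in Fcgr3, and those of the other 6 genes occurred in no other gene's transcripts.

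Promoters of Fcgr4, the gene that differed by route, and of Fcgr1, an activating receptor that did not pass that test, are printed here from RefSeq (GRCm38.p6) as the 250 bases before each start. Capitals mark GAGGAA, the core bound by the myeloid factor PU.1, on either strand (TTCCTC on the strand shown). The first base of the match lies 22 bases before the start of Fcgr4 and 55 bases before that of Fcgr1. This 6-base word occurred in the window of 4 of the 7 genes (Fcgr1, Fcgr3, Fcgr4 and Fcrls) and in 23.3% of 32851 promoters of that length, and a match is a description of the letters and not a site.
Fcgr4, chr1:171018676-171018925, plus strand: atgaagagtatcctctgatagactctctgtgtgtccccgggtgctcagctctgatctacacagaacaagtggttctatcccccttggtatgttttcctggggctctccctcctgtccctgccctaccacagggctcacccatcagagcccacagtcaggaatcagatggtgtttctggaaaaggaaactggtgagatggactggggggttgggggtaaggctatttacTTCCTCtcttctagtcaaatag
Fcgr1, chr3:96293970-96294219, minus strand: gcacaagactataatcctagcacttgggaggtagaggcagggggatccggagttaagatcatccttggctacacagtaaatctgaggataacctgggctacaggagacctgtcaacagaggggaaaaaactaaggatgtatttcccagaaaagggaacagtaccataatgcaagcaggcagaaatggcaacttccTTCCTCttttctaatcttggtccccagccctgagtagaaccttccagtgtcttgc

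Levels are given as CPM, the counts of a gene per 1000000 unique molecular identifiers (UMIs) summed over the kept cells of a library. Such a summed level does not tell fewer expressing cells from fewer molecules per cell. Each molecule is counted from its 3-prime end, so values were not divided by transcript length. Kept cells numbered 2266 to 4555 per treated library, with 4970758 to 16514669 UMIs, and the median per cell was 3499 UMIs in the MLCs of mouse 2 against 842 to 1307.5 in the other 7. The treatment-naive libraries kept 13.6% to 51.0% of their barcodes, against 84.5% to 93.9% in the treated libraries. Naive microglia had 1274 kept cells with a median of 425 UMIs, and 341 PB cells were kept. EGFP was at 16.8 to 33.3 CPM in the GFP+ libraries and at 0 to 0.153 CPM in the GFP- libraries. Of the treatment-naive cells labelled neurons, 92.7% had at least 3 oligodendrocyte markers and 0.348% at least 3 neuron markers, so that library is called the library labelled neurons. Libraries shared at most 8 cell barcodes in any pair.

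All 7 genes were detected in microglia and 6 of them were near 0 in the non-myeloid libraries. In treatment-naive microglia, Fcer1g was at 2115 CPM, Fcrls at 1373, Fcgr3 at 720, Fcgr1 at 304, Fcgr2b at 241, Fcgrt at 90.1 and Fcgr4 at 23.3 CPM. In the astrocyte library, Fcgr1 and Fcgr4 had 0 UMIs, which allows up to 3 UMIs, and Fcgr2b, Fcgr3, Fcrls and Fcer1g had 3 to 13 UMIs. Fcgrt was the exception, at 65.1 CPM in astrocytes (95% Poisson interval 58.1 to 72.8), below the 90.1 CPM of naive microglia (72.3 to 111). In the library labelled neurons it was at 3.77 CPM. These libraries have no replicate, and the intervals cover counting error only.

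Blood held the same receptors in another proportion. In PB cells Fcgr4 was at 84.0 CPM (73.3 to 95.8) and Fcgr1 at 22.0 CPM, whereas in naive microglia Fcgr4 was at 23.3 CPM (14.8 to 34.9) and Fcgr1 at 304 CPM. Fcrls was at 81.3 CPM in PB cells, against 1052 to 2269 CPM in every microglia or MLC library. Fcer1g was at 1676 CPM, below the lowest treated brain library (1709 CPM). Within blood, cells with at least 3 monocyte markers and no other list held Fcgr4 at 148 CPM, Fcgr3 at 322 CPM, Fcgr2b at 150 CPM and Fcgr1 at 50.1 CPM (120 cells). B cells marked in the same way (85 cells) had 63 UMIs of Fcgr2b (117 CPM) and 0 UMIs of Fcgr1 and Fcgr3, which is the known pattern of B cells carrying the inhibitory receptor.

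**Figure D1:**
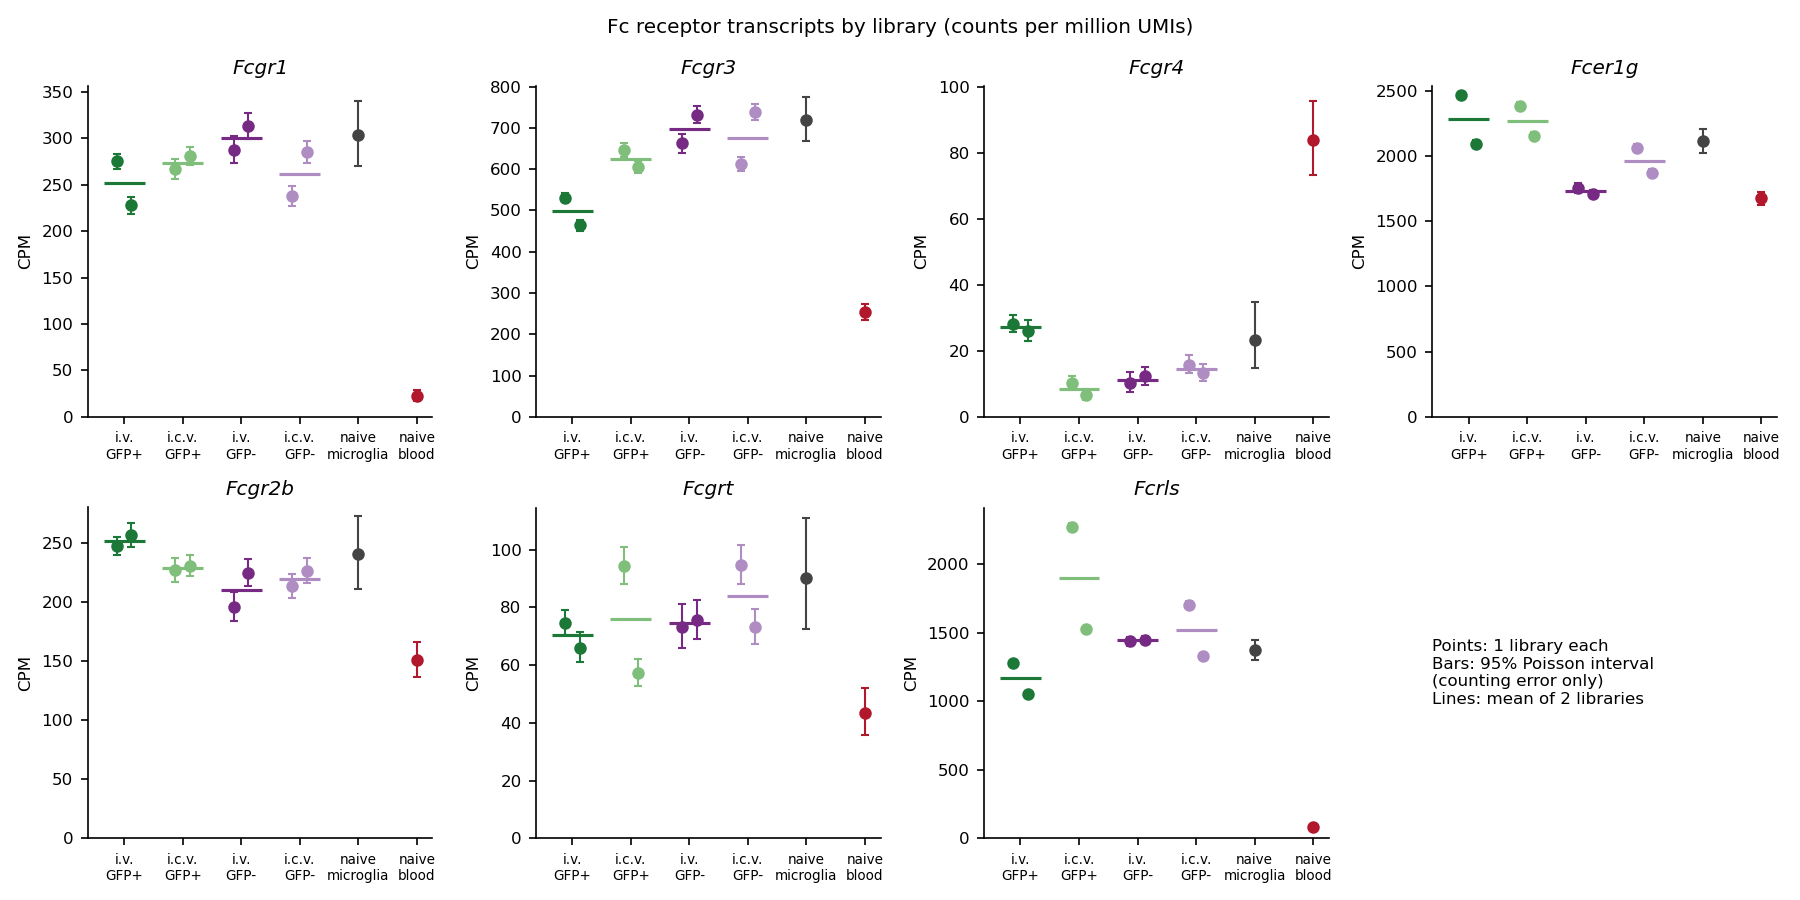
CPM (counts per 1000000 UMIs, vertical axes, from 0) of the 7 genes in the treated, naive microglia and naive blood libraries, with 1 point per library, 95% Poisson intervals and a line at the mean of 2 libraries. The i.v. GFP+ points of Fcgr4 lie at 28.3 and 25.9 CPM, above the 6 other treated libraries (6.60 to 15.8 CPM), and Fcrls is at 81.3 CPM in blood.

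Fcgr4, which binds IgG on blood monocytes and neutrophils, was the gene of the 7 that differed by route of dosing. In MLCs it was at 28.3 CPM in mouse 2 and 25.9 CPM in mouse 27 after i.v. dosing, and at 10.2 CPM in mouse 4 and 6.60 CPM in mouse 19 after i.c.v. dosing. In endogenous microglia of the same mice it was at 10.3, 12.3, 15.8 and 13.2 CPM. The i.v. MLCs were thus above every other treated library, and the i.c.v. MLCs were below every GFP- library, the highest at 10.19 CPM beside the lowest GFP- value of 10.26 CPM. In MLCs the level was 3.52-fold higher after i.v. than after i.c.v. dosing (log2 fold change 1.81 ± 0.21 SE, adjusted p = 0.00344, edgeR). It was called in each of 19 alternatives, with adjusted p from 2.78e-07 to 0.0239.

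In endogenous microglia the route difference of Fcgr4 had the opposite sign and did not pass (log2 fold change -0.47 ± 0.22, adjusted p = 0.608, edgeR). The GFP difference itself depended on route, with a log2 difference of 2.29 ± 0.31 (adjusted p = 0.0162, edgeR). This call was lost without the GFP- library of mouse 27 (adjusted p = 0.0503) or of mouse 4 (adjusted p = 0.0636), with log2 differences of 2.43 and 2.14. With the mouse as a block the log2 difference was the same and the call was kept (adjusted p = 0.00102), with 880 genes called in place of 199.

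Of the 7 genes, 1 was called for route in MLCs, beside 2.56% of the 12540 genes tested (2.31% higher and 0.247% lower after i.v. dosing), and the same 1 was called for the dependence on route, beside 1.59%. In endogenous microglia 0 of the 7 were called for route, and 0% of all genes by edgeR, although 1032 had an unadjusted p under 0.05 and DESeq2 called 70 genes. The values of 4 genes (Fcgr3, Fcgr4, Fcgr2b and Fcrls) did not overlap between routes in MLCs, where 50.7% of all genes did not, and those of 3 genes (Fcgr1, Fcgr4 and Fcer1g) did not in endogenous microglia, where 46.7% did not.

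Cells of other types were more frequent in i.v. than in i.c.v. MLC libraries. Cells with at least 3 monocyte markers numbered 60 and 34 there, and those with at least 3 neutrophil markers 14 and 25. Those with at least 3 dendritic cell markers numbered 34 and 39. All of these were 0 in the i.c.v. MLC libraries. The summed monocyte list was at 442 and 364 CPM after i.v. dosing (9 of 9 markers detected) and at 2.49 and 3.76 CPM after i.c.v. dosing, with Plac8 and Chil3 at 0 in both. The summed neutrophil list was at 1627 and 3265 CPM (9 of 9 detected) against 1.02 and 0.825 CPM, with S100a8 and S100a9 at 0 in both i.c.v. libraries. In endogenous microglia the monocyte list was at 30.5 to 159 CPM and the neutrophil list at 57.2 to 5962 CPM, the highest of both being mouse 4. The 50 and 27 monocyte-marked cells of i.v. MLCs without markers of other types had Fcgr4 at 77.5 and 91.6 CPM. When cells with at least 3 markers of monocytes or other types were left out, the log2 fold change was 1.72. Cells of such types with fewer than 3 detected markers stay in that set, and their part in the difference was not tested. In cells with microglia markers only, Fcgr4 was at 26.7 and 26.6 CPM in i.v. MLCs, at 9.97 and 8.67 CPM in i.c.v. MLCs, and at 9.69 to 13.5 CPM in endogenous microglia.

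A further set of cells reached 3 markers of no list, and there the route values lay farthest apart. It held 1064 and 1120 cells of the i.v. MLC libraries, with Fcgr4 at 31.6 and 41.5 CPM, and 1068 and 1379 cells of the i.c.v. libraries, with 3 UMIs in each (3.41 and 2.41 CPM). In the same cells Fcrls was at 336 and 328 CPM after i.v. dosing and at 1092 and 992 CPM after i.c.v. dosing. In cells with border macrophage markers the i.v. and i.c.v. levels of Fcgr4 in MLCs were 25.8 and 16.1 CPM against 11.8 and 6.25 CPM. Endogenous microglia with these markers were at 12.5 to 20.5 CPM, so the i.v. MLC value of mouse 27 (16.1 CPM) lay among them. Endogenous microglia with 3 markers of no list had Fcgr4 at 7.02 to 17.6 CPM, from 2 to 5 UMIs per library. These sets were formed after the data were seen, and whether a cell reaches 3 markers depends on its depth.

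**Figure D2:**
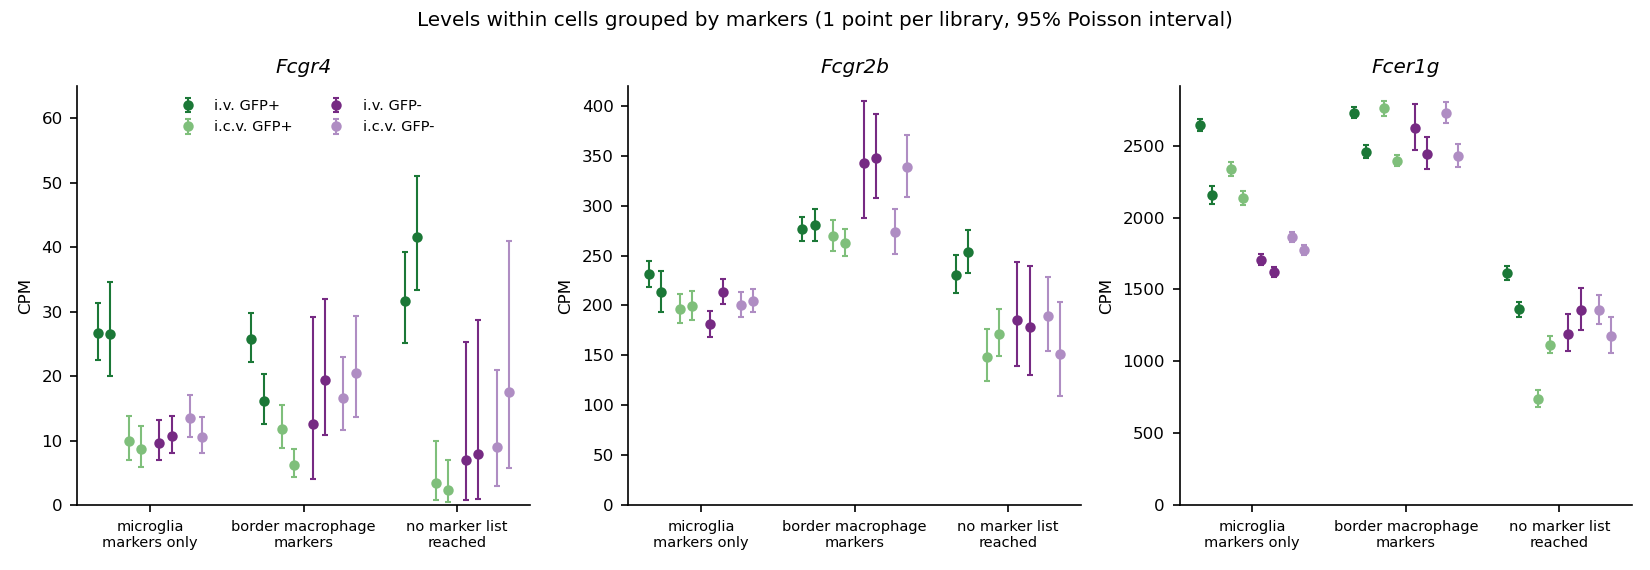
CPM (counts per 1000000 UMIs, vertical axes, from 0) of Fcgr4, Fcgr2b and Fcer1g in cells with at least 3 microglia markers only, with at least 3 border macrophage markers, or with 3 markers of no list, with 1 point per library and 95% Poisson intervals. Fcgr4 is at 26.7 and 26.6 CPM in i.v. GFP+ cells with microglia markers only, above the 6 other libraries (8.67 to 13.5 CPM), whereas the Fcgr2b points of the sorts overlap there.

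Few cells showed an Fcgr4 molecule at all. With each cell thinned to 500 UMIs, it was found in 1.29% and 0.838% of i.v. MLCs, 0.382% and 0.283% of i.c.v. MLCs, and 0.411% to 0.666% of endogenous microglia. It was found in 0.830% of 482 naive microglia (exact interval 0.227% to 2.11%, with 792 shallower cells left out), in 4.49% of PB cells and in 0 of 1146 astrocytes, which allows up to 0.262%. The i.v. MLC shares were above those of the other treated libraries. The shares of all 8 treated libraries lay within the wide interval of naive microglia, which therefore does not separate them. In the naive microglia library the summed neutrophil list was at 9229 CPM and the monocyte list at 473 CPM. Cells with at least 3 of these markers numbered 1 and 5 there. The part of such transcripts in its Fcgr4 values was not tested. Without thinning Fcgr4 was found in 9.06% and 5.69% of i.v. MLCs and 2.71% and 1.81% of i.c.v. MLCs. In endogenous microglia it was found in 1.67% to 2.09%, so 1 i.c.v. MLC library lay above the GFP- values and 1 lay among them.

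Fcrls showed the reverse order by route without passing the test. In MLCs it was at 1279 and 1052 CPM after i.v. dosing and at 2269 and 1524 CPM after i.c.v. dosing, so the groups did not overlap, but the i.c.v. values lay far apart. The log2 fold change was -0.59 ± 0.20 (adjusted p = 0.185, edgeR). In endogenous microglia it was at 1437, 1448, 1704 and 1328 CPM in mice 2, 27, 4 and 19, and the log2 fold change was -0.19 ± 0.20 (adjusted p = 0.810, edgeR). Against GFP- cells the log2 fold change in MLCs was 0.31 ± 0.20 (adjusted p = 0.267, edgeR), with overlapping values.

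Fcer1g, the common chain without which the activating receptors do not signal, was higher in MLCs. It was at 2471, 2093, 2382 and 2157 CPM in the MLCs of mice 2, 27, 4 and 19, and at 1755, 1709, 2063 and 1867 CPM in their endogenous microglia. Each MLC library was above all 4 GFP- libraries, the closest pair being 2093 and 2063 CPM. The log2 fold change was 0.58 ± 0.14 (1.49-fold, adjusted p = 0.0124, edgeR), higher in 4 of 4 mice. In cells with microglia markers only, the values were 2136 to 2644 CPM in MLCs and 1619 to 1864 CPM in endogenous microglia. In those with border macrophage markers they overlapped, at 2396 to 2759 CPM and 2430 to 2730 CPM, as did those of cells with 3 markers of no list, at 738 to 1612 CPM and 1178 to 1360 CPM. The call was lost after thinning each cell to 500 UMIs (log2 fold change 0.17, adjusted p = 0.666) and in the i.c.v. group (0.37, adjusted p = 0.146).

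Fcgr2b, the inhibitory receptor, was higher in MLCs by a smaller margin. It was at 248, 257, 227 and 231 CPM in MLCs and at 196, 225, 214 and 226 CPM in endogenous microglia, so the groups did not overlap, with 227.4 CPM beside 226.4 CPM at the border. The log2 fold change was 0.45 ± 0.12 (1.36-fold, adjusted p = 0.0169, edgeR). The call was lost without the GFP- library of mouse 27 (adjusted p = 0.0524), after thinning to 500 UMIs (0.22, adjusted p = 0.420) and in the i.c.v. group (0.23, adjusted p = 0.226). In cells with microglia markers only, Fcgr2b was at 196 to 231 CPM in MLCs and 181 to 214 CPM in endogenous microglia. In those with border macrophage markers it was at 263 to 280 CPM in MLCs and 274 to 348 CPM in endogenous microglia. Cells with border macrophage markers made up 21.2% to 31.7% of the MLC libraries and 2.95% to 8.38% of the GFP- libraries. These cells could also carry microglia markers, so the shares are not a count of border macrophages. Their median depth was 4263 to 8111 UMIs per library, against 838 to 3762 UMIs in cells with microglia markers only. The summed border macrophage list, with 7 of 7 markers detected in each library, was at 1487 to 2178 CPM and 501 to 1153 CPM, and its part in the difference between the sorts was not tested.

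The activating receptors did not pass the test between the sorts. Fcgr1, the high-affinity IgG receptor, was at 275, 228, 266 and 281 CPM in MLCs and at 287, 313, 238 and 285 CPM in endogenous microglia (log2 fold change 0.19 ± 0.11, adjusted p = 0.201, edgeR). Fcgr3, a low-affinity receptor, was at 531, 464, 646 and 605 CPM in MLCs and at 663, 732, 612 and 739 CPM in endogenous microglia (log2 fold change -0.01 ± 0.12, adjusted p = 0.955, edgeR). Fcgr4 had a log2 fold change of 0.77 ± 0.50 over both routes (adjusted p = 0.276, edgeR). By route it was 1.64 in the i.v. group (adjusted p = 0.00134) and -0.64 in the i.c.v. group (adjusted p = 0.108). Fcgrt, which salvages IgG, was at 57.3 to 94.4 CPM in MLCs and 73.2 to 94.7 CPM in endogenous microglia (log2 fold change 0.16 ± 0.16, adjusted p = 0.482, edgeR).

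Thus 2 of 7 genes were called between the sorts, both higher in MLCs, where 32.3% of 11756 genes were called (16.5% higher and 15.9% lower), and 2 of 7 did not overlap, where 38.9% of genes did not. That number of calls is close to the background. Fold changes rest on TMM factors, which were 0.859 to 0.967 in MLC libraries and 1.04 to 1.16 in GFP- libraries. With plain library sizes the median of all genes moved from 0.01 to -0.27 on the log2 scale, and the calls of Fcer1g (0.30, adjusted p = 0.0738) and Fcgr2b (0.16, adjusted p = 0.263) were lost, with Fcgr1 at -0.10 and Fcgrt at -0.12. Fcgr3 was at -0.29.

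**Figure D3:**
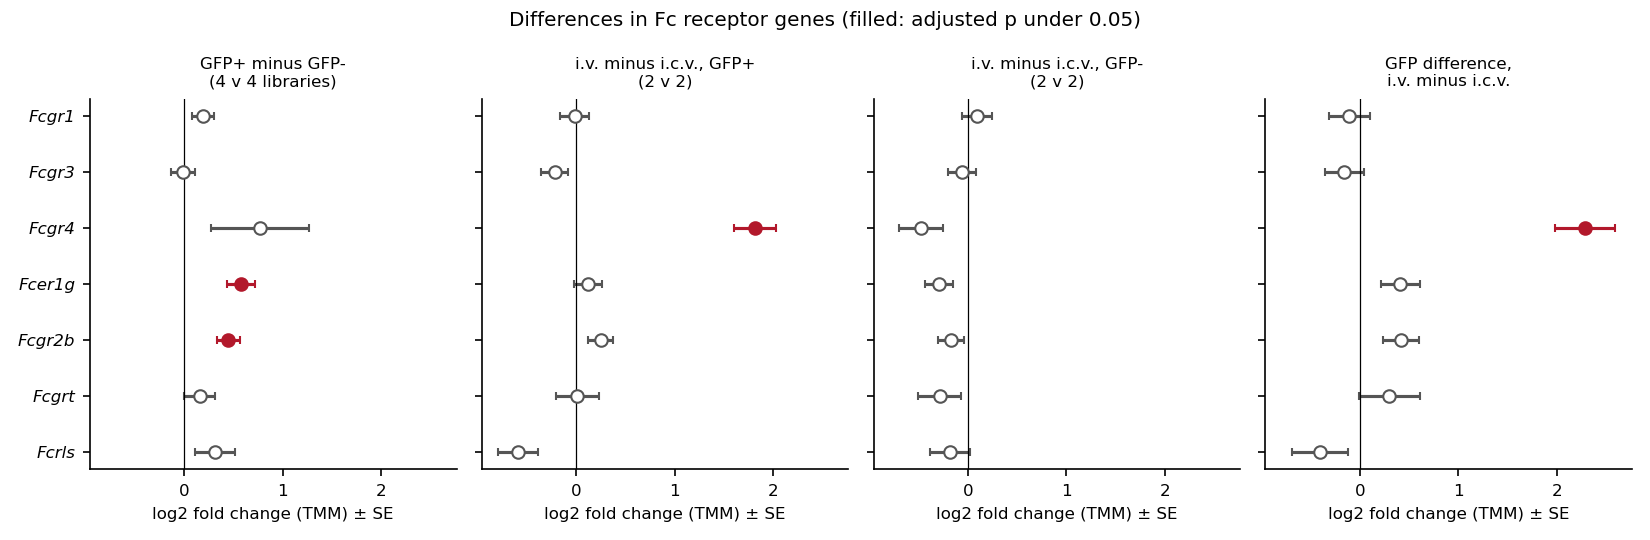
Log2 fold changes (TMM, horizontal axis) with their SE for the 7 genes in the comparison of sorts, of routes within each sort, and of the sort difference between routes, with filled points at an adjusted p under 0.05. Fcer1g (0.58) and Fcgr2b (0.45) are filled between the sorts, and Fcgr4 is filled for route in GFP+ cells (1.81) and for the dependence on route (2.29).

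Shares within the receptor family do not depend on library scaling. Fcgr2b made up 22.9%, 26.4%, 19.8% and 20.6% of the Fc gamma receptor UMIs (Fcgr1, Fcgr2b, Fcgr3 and Fcgr4) in MLCs of mice 2, 27, 4 and 19, and 17.0%, 17.6%, 19.8% and 17.9% in endogenous microglia. The means were 22.4% ± 2.95 and 18.1% ± 1.23 (SD, n = 4 each). The difference of 4.33 percentage points did not pass a two-sided exact permutation test over libraries (p = 0.0571, smallest possible 0.0286). Within mice it was 5.94 and 8.79 points after i.v. dosing and -0.05 and 2.66 points after i.c.v. dosing. Sign flips within the 4 mice gave an exact p of 0.25, where 0.125 is the smallest possible.

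By route, the inhibitory share of MLCs was 24.6% after i.v. and 20.2% after i.c.v. dosing. The difference of 4.46 points fell to 1.70 points after thinning to 500 UMIs and ran from 2.74 to 6.18 points with 1 library left out. The i.v. MLC libraries held 34 and 38 cells with at least 3 dendritic cell markers and without neutrophil marking, and the i.c.v. MLC libraries 0. In these cells Fcgr2b was at 236 and 264 CPM, Fcgr3 at 105 and 95.9 CPM and Fcgr1 at 22.4 and 22.2 CPM. Their part in the route difference of the share was not tested. In endogenous microglia the inhibitory share was 17.3% and 18.9%. With 2 libraries against 2, the exact permutation test cannot go below p = 0.333, which both comparisons gave. Naive microglia had 18.7% (exact interval 16.6% to 21.0%), within the range of the GFP- libraries, and PB cells had 29.5% (27.1% to 32.0%). The PB share mixes cell types, since 32.8% of PB cells had at least 3 B cell markers. B cells with no other list had 63 Fcgr2b UMIs and 0 of Fcgr1 and Fcgr3. Monocyte-marked PB cells had 147 Fcgr2b UMIs, beside 49 of Fcgr1, 315 of Fcgr3 and 145 of Fcgr4.

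**Figure D4:**
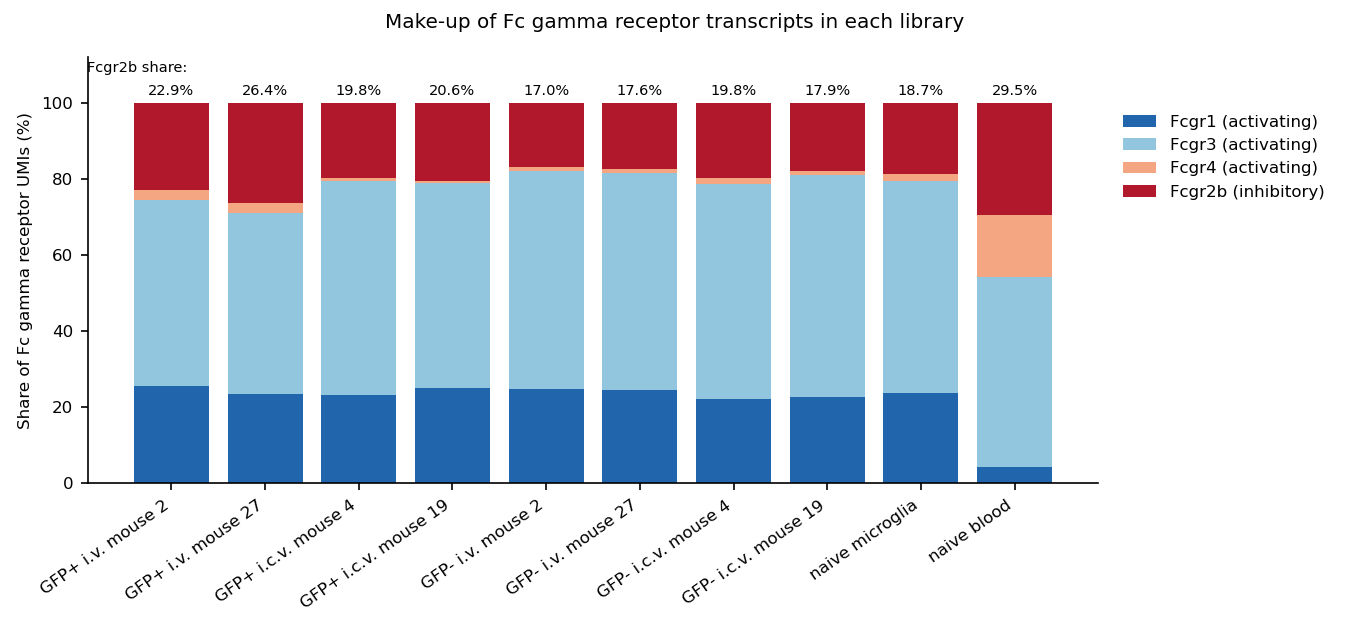
Share of Fc gamma receptor UMIs (vertical axis, percent) taken by each receptor in the 8 treated, the naive microglia and the naive blood libraries, with the Fcgr2b share printed above each bar. Fcgr2b takes 22.9% and 26.4% in i.v. GFP+ cells and 17.0% to 19.8% in GFP- cells, and Fcgr4 takes 16.4% in blood.

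Among the activating receptors, Fcgr3 took 47.6% to 56.2% of the receptor UMIs in MLCs and 56.7% to 58.5% in endogenous microglia, and Fcgr1 took 23.2% to 25.4% and 22.0% to 24.9%. The lower Fcgr3 share was in the i.v. MLCs (49.0% and 47.6%). UMIs of Fcer1g per UMI of an activating receptor were 2.96, 2.92, 2.58 and 2.42 in MLCs and 1.83, 1.62, 2.38 and 1.80 in endogenous microglia. The MLC of mouse 19 and the endogenous microglia of mouse 4 were thus close, at 2.42 and 2.38.

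The share of cells with an Fcgr2b molecule depended on the depth at which it was read. At 500 UMIs per cell Fcgr2b was found in 8.43% to 10.1% of MLCs and 7.44% to 9.70% of endogenous microglia, and the ranges overlapped. With 1000 UMIs per cell, which 1374 to 2561 cells per library reached, it was found in 17.9% to 20.8% and in 14.0% to 17.0%, and at own depth in 30.9% to 47.1% and in 19.96% to 24.1%. Fcgr3 at 500 UMIs was found in 15.0% to 20.9% of MLCs and 20.5% to 26.8% of endogenous microglia, Fcgr1 in 7.99% to 11.6% and 10.1% to 13.1%, and Fcer1g in 41.1% to 55.4% and 36.6% to 52.4%. With 1000 UMIs, cells with an activating receptor and Fcgr2b together made up 10.2% to 12.5% of MLCs and 7.65% to 10.8% of endogenous microglia. In astrocytes, which should lack these receptors, Fcgr2b was found in 0 of 1146 cells at 500 UMIs, which allows up to 0.262%. At this depth an undetected receptor does not show that a cell lacks it.

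The pathway genes downstream were called in both directions between the sorts. Of the 19 activating signaling genes, 2 were higher in MLCs, 3 were lower and 14 were not called, beside 32.3% called over all genes (16.5% higher and 15.9% lower). With plain library sizes, which lower the median of all genes, 1 was higher and 8 were lower. The exchange factor Vav3 (log2 fold change 1.47 ± 0.46) and the adapter Grb2 (0.43 ± 0.14) were higher. The phosphoinositide 3-kinase subunits Pik3r1 (-0.80 ± 0.21) and Pik3cd (-0.57 ± 0.11) and the phospholipase Plcg2 (-0.47 ± 0.12) were lower. With plain library sizes Grb2 lost its call, and Btk, Lat2, Shc1, Cbl and Prkcd were also called lower. The kinase Lyn, at 353 CPM in MLCs and 388 CPM in endogenous microglia, did not pass (adjusted p = 0.563, edgeR). The list's median log2 fold change was -0.01, beside 0.01 over all genes.

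Of 7 inhibitory signaling genes, Inpp5d, the phosphatase that Fcgr2b recruits, was lower in MLCs (245 against 459 CPM, log2 fold change -0.62 ± 0.13, adjusted p = 0.00732, edgeR). Dok3, an adapter that limits immunoreceptor signals, was higher (0.61 ± 0.10, adjusted p = 0.00258, edgeR), and 5 genes were not called, among them the phosphatase Ptpn6 (0.28 ± 0.13). These 2 calls of 7 stand beside 32.3% of all genes called. With plain library sizes Inpp5d and Dok3 kept their directions and calls (-0.91 and 0.33), and 3 genes of the list were lower in place of 1, with Inppl1 (-0.52) and Ptpn11 (-0.31) added. Thus in MLCs the inhibitory receptor and the phosphatase it recruits had log2 fold changes of opposite sign.

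A few ITAM adapters, Fc-like receptors and partners of Fcer1g or Fcgrt were called, all higher in MLCs, where 16.5% of all genes were. Of 8 ITAM adapters and receptors that pair with Fcer1g, 5 passed the filter on low counts and 2 were higher: Tyrobp, the other ITAM adapter of microglia (2507 against 2097 CPM, log2 fold change 0.54 ± 0.15), and the lectin receptor Clec4n (1.19 ± 0.30). Of 13 other Fc and Fc-like receptors with the Fcgrt partner, 3 passed and 2 were higher, B2m (0.69 ± 0.15) and Fcrl1 (0.52 ± 0.18). With plain library sizes Tyrobp and Fcrl1 lost their calls, and Clec4n and B2m kept theirs. Of 12 genes of phagocytic actin, Arpc3 (0.64 ± 0.15), Arpc2 (0.54 ± 0.16) and Cdc42 (0.39 ± 0.13) were higher, the exchange factor Dock2 (-0.52 ± 0.12) was lower and 8 were not called. These 4 of 12 stand beside 32.3% of all genes. With plain library sizes 1 gene of this list was higher (Arpc3) and 4 were lower (Dock2, Rac1, Wasf2 and Wipf1), so the balance of directions turned with the scaling.

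Of the antibody genes, the IgM heavy chain transcript was measured in the brain libraries and IgG heavy chain transcripts were near 0. Of 9 immunoglobulin genes, 2 passed the filter and none was called between the sorts (edgeR). Ighm, the IgM heavy chain, was at 151 to 217 CPM in every treated library, at 184 CPM in naive microglia and at 1772 CPM in PB cells, and Ighd was at 4.65 CPM in MLCs and 5.83 CPM in endogenous microglia. No IgG heavy chain gene exceeded 0.247 CPM in any treated library. The light chain Igkc averaged 1.20 CPM over the treated libraries (0 to 4.44 CPM) and was at 2763 CPM in PB cells. The summed B cell list was at 8.94 to 14.6 CPM in the treated libraries and at 2180 CPM in PB cells. IgM protein was not measured.

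By route in MLCs, 2 activating signaling genes and 3 genes of phagocytic actin were higher after i.v. dosing and none of these lists had a lower gene, beside 2.31% higher and 0.247% lower over all genes. They are named here after their values were seen: the kinases Fgr (log2 fold change 3.86 ± 0.61) and Fyn (2.74 ± 0.30), and Coro1a (1.22 ± 0.16), Rac2 (0.76 ± 0.12) and Arpc1b (0.62 ± 0.13). Arpc1b lost its call with plain library sizes (adjusted p = 0.0741), which left 2 actin genes. In PB cells Fgr was at 169 CPM, against at most 20.3 CPM in any treated library. Among MLC libraries, cells with at least 3 monocyte, neutrophil or dendritic cell markers were found only after i.v. dosing. The part of those cells in these differences was not tested. The inhibitory list and the list of ITAM adapters and receptors that pair with Fcer1g had 0 calls by route in MLCs (edgeR).

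Over the 12 libraries, the gene whose profile was closest to that of Fcer1g was Tyrobp, with a root mean square difference of 0.19 between mean-centered log2(CPM + 1) values. The genes closest to Fcgr3 were Irf8 (0.18), Cd84 and Cd300c2. Fcgr2b lay closest to Cd68 (0.22), Fcgr1 to C3ar1 (0.31), Fcgr4 to Clec4a1 (0.39), Fcrls to Ccl4 (0.46) and Fcgrt to Ssbp4 (0.22). These are descriptions over 9669 genes, and all profiles share the contrast of myeloid with other libraries.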

How the data were processed

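Single-cell RNA was measured with 10x Genomics 3-prime chemistry in 12 libraries. The authors deposited whole-number UMI counts per gene and barcode, not normalized, made with Cell Ranger (3.1.0 in the matrix headers) on mm10. Barcodes passed with 200 or more genes and no more than 10% mitochondrial UMIs. Counts were summed per library, the unit of replication, scaled by TMM, filtered with filterByExpr and compared with two-sided quasi-likelihood tests in edgeR 4.0.16 (R 4.3.3) over all genes, with Benjamini-Hochberg adjustment and a threshold of 0.05. The fits between sorts took the 8 treated libraries in 2 groups, and those by route took them in 4 groups. Fold changes are on this TMM scale and CPM values are not. Each group by sort and route held 2 mice of different sex, so sex was not separated from mouse. The edgeR p-values measure the spread between the 8 libraries, in which the 2 libraries of a mouse were taken as independent.

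The GFP+ and GFP- libraries of a mouse come from the same animal, which pairs them by design. Their deviations from the sort means correlated at 0.20, 0.01, -0.28 and -0.33 in mice 2, 19, 27 and 4. The reported fit had no block.

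Shares were compared by exact permutation of libraries, two-sided. Shares of cells used cells thinned to 500 UMIs, since depth differed between libraries, and were repeated at 1000 UMIs and at own depth. Intervals are exact at 95% (Poisson or Clopper-Pearson) and cover counting error only, and a count of 0 is given with the limit of 3 counts. Doublets were not called, and leaving out the 3% of cells with the most UMIs was an alternative. Marker sets use at least 3 detected markers of a fixed list. The named genes are the 7 genes, from each pathway list those called between the sorts (at most 4 per direction) with the 2 of highest mean CPM, and the 3 genes of most similar profile for each of the 7, among genes of at least 20 CPM in some library. The members and lists were chosen with earlier results of these data known. The reported edgeR comparisons, which had no block, were tested on simulated data. Sequences come from GENCODE vM21 transcripts and RefSeq promoters. Alternatives covered normalization, tool, filters, cell sets, covariates, blocks and each library left out, and 2 were added after the data were seen: plain library sizes, and routes fitted within a sort. Python 3.11.15 with scipy 1.17.1 and DESeq2 1.42.0 were also used.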

Additional observations from a re-analysis of the deposited data

Results flagged for a closer look

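Fcgr4 was flagged because its GFP+ against GFP- log2 fold change differed between routes by a test of the difference itself, by 2.29 (i.v. minus i.c.v., adjusted p = 0.0162, edgeR). Fcgrt in GFP- cells was flagged because mouse 4 stood apart at 94.7 CPM, beside 73.2 to 75.7 CPM in the other 3 GFP- libraries. The MLC library of mouse 4 was also the highest of its sort, at 94.4 CPM. Of 16 groups of 4 libraries examined in this way 1 was flagged, and chance flags about 1 in 20.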

How the results depend on the processing

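Of 560 values of single genes under another choice, 513 kept their direction and side of the threshold, 37 reversed, 9 lost a call and 1 gained one. The 37 reversals were of differences that were not called in the reported fit, and the cause was not tested. Fold changes below are log2.

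Between the sorts, 2 of the 7 genes and 3802 genes in all were called. None of the 7 was called with plain library sizes, with cells thinned to 500 UMIs or in i.c.v.-dosed mice, that is 0 in each, and leaving out 1 library gave 1 to 2. Fcer1g was at 0.30, 0.17 and 0.37 and Fcgr2b at 0.16, 0.22 and 0.23 there (adjusted p from 0.0738 to 0.666). Genes called numbered 1314 after thinning, 1296 in i.c.v.-dosed mice, and 2227 to 3815 with 1 library left out, the fewest without the GFP- library of mouse 27. Fcgr1 reversed to -0.10 with plain sizes and -0.16 after thinning, Fcgrt to -0.12 and -0.11, Fcgr4 to -0.64 in i.c.v.-dosed mice, and Fcgr3 to 0.0019 without the filter, 0.0034 with stricter barcodes, 0.10 without the 3% of cells with the most UMIs and 0.056 in i.c.v.-dosed mice (-0.060 to 0.045 with 1 library left out).

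By route in MLCs, 321 genes were called, against 526 with DESeq2, 590 without the filter, 74 after thinning, 211 without cells of other types and 127 also without monocyte-marked cells, and 61 to 264 with 1 library left out, 61 without the MLC library of mouse 4 and 175 without that of mouse 19. Fcgr1 reversed to 0.0029 without the filter, 0.13 after thinning, 0.10 without the top 3%, and 0.054 and 0.076 in the same cell exclusions (-0.15 to 0.11 with 1 library left out). Fcgrt reversed to -0.020 with upper-quartile scaling, -0.10 with plain sizes, -0.19 after thinning, -0.069 without the top 3%, and -0.046 and -0.052 in the exclusions (-0.28 to 0.37). In endogenous microglia, where edgeR called 0 genes, DESeq2 called 70, no filter gave 28, thinning 1, a fit within the sort 5 and leaving out 1 library 0 to 36. Fcgr3 there reversed to 0.046 with plain sizes (-0.17 to 0.033 with 1 library left out), and Fcgr1 (-0.014 to 0.18) and Fcrls (-0.40 to 0.029) reversed only with a library left out.

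For the dependence on route, 199 genes were called, against 598 with DESeq2, 628 without the filter, 91 with stricter barcodes, 72 after thinning, 415 without the top 3%, 121 and 30 in the exclusions, and 26 to 296 with 1 library left out, when 0 to 1 of the 7 genes were called. Fcgr1 reversed to 0.032 after thinning, 0.059 without the top 3% and 0.0095 without other types and monocytes (-0.24 to 0.018), and Fcgr3 to 0.16 and 0.068 in the first pair of these.

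With the mouse as a replicate block, 3386 genes were called between the sorts, with Fcer1g (0.58, adjusted p = 0.0367) and Fcgr2b (0.44, adjusted p = 0.0419), and 880 for the dependence on route, with Fcgr4 (2.29, adjusted p = 0.00102). The block changed no other call of the 7 genes.

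The Fcgr2b share difference between the sorts passed the exact permutation test after thinning (6.25 points), without the top 3% (3.91) and against Fcgr3 alone (6.35), each at p = 0.0286, the smallest possible. Against Fcer1g it reversed (-0.87 points, exact p = 0.257). It ran from 3.02 to 5.21 points with 1 library left out. By route in MLCs it moved from 4.46 to 1.70 points after thinning (2.74 to 6.18 with 1 library left out), and in GFP- cells it was -2.54 to -0.65.

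Differences between the sorts in the share of cells with a transcript changed with the depth used, and the cause was not tested. In points at 1000 UMIs and at own depth, Fcgr1 moved from -2.10 to 0.30 and 12.5, Fcgr3 from -6.24 to -1.15 and 6.36 and Fcgrt from -0.419 to 0.072 and 7.59. Fcgr2b moved from 0.344 to 4.24 and 15.5, Fcer1g from 0.675 to 13.4 at 1000 UMIs, and Fcgr4 from 0.138 to 2.94 at own depth. At 500 UMIs per cell the Fcgr4 share rests on 10 to 43 cells per treated library.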
